A study of Mus musculus with 2 samples.

Results

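The secreted modulators and ligands of the Wnt pathway described here were 10 genes of the 27998 measured: the secreted frizzled-related genes Sfrp1, Sfrp2, Sfrp4, Sfrp5 and Frzb, the Dickkopf genes Dkk2 and Dkk3, the Wnt inhibitory factor Wif1, the ligand Wnt2 and the R-spondin Rspo3. They were taken as a named list. The study profiled mononuclear cells of the quadriceps, a limb muscle, and of the diaphragm, a respiratory muscle, of C57BL/6J mice by droplet single-cell RNA sequencing. Tissue from 10 mice was digested with collagenase and dispase, cells of each muscle were combined across animals, and viable cells were sorted on scatter alone. Per the paper, the cells of each muscle came from only some of these mice. There was 1 library per muscle, so a difference between muscles cannot be told apart from a difference between libraries or pools, and no test over samples was possible. The labels gave no age, sex, genotype other than the strain, or treatment.

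Wnt ligands are secreted glycoproteins that bind Frizzled receptors, alone or with the LRP5 and LRP6 co-receptors, and in the canonical branch this stabilises beta-catenin. Secreted frizzled-related proteins and Wif1 bind Wnt ligands outside the cell, Dickkopf proteins such as Dkk2 bind the LRP co-receptors, and R-spondins raise the response by keeping Frizzled receptors at the surface. In muscle, these proteins are made largely by stromal cells, among them fibro-adipogenic progenitors (FAPs), the Pdgfra-expressing mesenchymal cells that lie between fibres.

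All 10 genes are protein-coding in GENCODE M21 on GRCm38. The secreted frizzled-related genes lie with Sfrp1 at chr8:23411502-23449632 (plus strand), Sfrp2 at chr3:83766321-83774316 (plus strand), Sfrp4 at chr13:19623104-19632994 (plus strand), Sfrp5 at chr19:42197971-42202252 (minus strand) and Frzb at chr2:80411970-80447625 (minus strand). The remaining genes lie with Dkk2 at chr3:132085292-132180304 (plus strand), Dkk3 at chr7:112116017-112159057 (minus strand), Wif1 at chr10:121033960-121100650 (plus strand), Wnt2 at chr6:17988940-18030585 (minus strand) and Rspo3 at chr10:29452416-29535867 (minus strand). Sfrp2 overlaps the antisense gene Gm26771, which had 165 UMIs in FAPs, and Rspo3 overlaps Gm20276 and the antisense gene Gm48159, which had none.

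The quadriceps library held 5159 barcodes with 50854519 unique molecular identifiers (UMIs, 1 per captured transcript molecule) and the diaphragm library 2499 barcodes with 28545242 UMIs. Of these, 5010 and 2430 barcodes with at least 1000 UMIs and no extreme total were kept, and the libraries shared 5 barcode sequences. FAPs were cells with at least 1 Pdgfra and at least 50 Dcn UMIs: 2339 in quadriceps (46.7% of kept cells, median 10782 UMIs) and 2008 in diaphragm (82.6%, median 12572.5 UMIs). Levels were UMIs summed over a group of cells and divided by all UMIs of that group, scaled to 1000000 (CPM), with exact 95% Poisson intervals that cover counting error only. A difference was called when it was at least 2-fold on the log2(CPM + 1) scale and the higher group reached 50 CPM. Levels were compared within a gene, not between genes, since the counts carry no correction for how well each transcript was captured.

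Cells just inside the gate, with 50 to 59 Dcn UMIs, gave 488 CPM of the 10 genes summed in quadriceps (27 cells) and 378 CPM in diaphragm (10 cells), and cells just outside it, with 40 to 49, gave 238 CPM (33 cells) and 222 CPM (9 cells). The gate was checked against FAP genes that it did not use. Cd34, a surface marker of these cells, stood at 1228 CPM in gated cells of quadriceps against 107 CPM in the remaining kept cells, and at 1242 against 390 CPM in diaphragm. Ly6a, which encodes Sca-1, stood at 2425 against 217 CPM in quadriceps and at 1251 against 395 CPM in diaphragm. Markers of other cells were present in the gated cells, and differently in the muscles. The 6 tenocyte markers summed to 454 CPM in quadriceps and 1650 CPM in diaphragm, the 6 Schwann markers to 135 and 23.4 CPM, and the 5 smooth muscle markers to 1758 and 25.2 CPM, with none of these 17 markers at 0 in either muscle. The tenocyte markers did not move one way: Thbs4 (254 and 1533 CPM), Tnmd (53.0 and 80.6 CPM) and Mkx (1.24 and 2.78 CPM) were higher in diaphragm, and Fmod (125 and 33.6 CPM), Scx (7.98 and 0.502 CPM) and Kera (11.8 and 0.0773 CPM) in quadriceps. The immediate early genes Fos and Junb, which rise during tissue dissociation and were chosen after their values were seen, stood at 264 and 282 CPM in quadriceps FAPs and at 2690 and 2091 CPM in diaphragm FAPs. Their part in the differences between muscles given here was not tested.

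In FAPs, 1 of the 10 genes was called higher in diaphragm and 1 higher in quadriceps. Sfrp1, which binds Wnt ligands, gave 2410 UMIs in quadriceps FAPs, or 90.7 CPM (interval 87.2 to 94.4), and 7085 UMIs in diaphragm FAPs, or 274 CPM (interval 267 to 280). It was therefore 3.02-fold higher in diaphragm (counting interval 2.88 to 3.16), a log2 difference of 1.58. Dkk2, an antagonist of the LRP co-receptors that can also act as a weak agonist, gave 4004 UMIs or 151 CPM (interval 146 to 156) in quadriceps and 1026 UMIs or 39.6 CPM (interval 37.3 to 42.2) in diaphragm. It was 3.80-fold higher in quadriceps (counting interval 3.55 to 4.08). Across all genes that reached 50 CPM in a muscle, 3.66% were called higher in diaphragm, 3.11% higher in quadriceps and 6.77% either way. Only 4 of the 10 genes reached that level, Sfrp1, Sfrp2, Sfrp4 and Dkk2. Their median absolute log2 difference was 1.08, beside 0.20 over the 3308 genes compared. The 10 genes were chosen with earlier results of these data known, so these medians are a description and test nothing.

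Sfrp2 and Sfrp4, the other secreted frizzled-related genes at that level, differed less between muscles. Sfrp2, which is known for roles in fibroblasts and in wound matrix, gave 236 CPM (interval 230 to 242) in quadriceps and 159 CPM (interval 154 to 164) in diaphragm, a log2 difference of -0.57. Sfrp4 gave 155 CPM (interval 150 to 160) and 133 CPM (interval 129 to 138), a log2 difference of -0.22. Both were below the 2-fold limit, and in both the counting intervals of the muscles did not overlap.

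The lower-level genes were split between the muscles. Wnt2, the canonical ligand of the list, gave 36.5 CPM (interval 34.3 to 38.9) in quadriceps and 9.47 CPM (interval 8.32 to 10.7) in diaphragm, 3.86-fold higher in quadriceps. Rspo3 gave 15.8 CPM (interval 14.3 to 17.4) in quadriceps and 35.1 CPM (interval 32.8 to 37.4) in diaphragm, 2.22-fold higher in diaphragm. Dkk3, a divergent Dickkopf family member that does not bind the LRP co-receptors, gave 8.21 CPM (interval 7.15 to 9.37) and 19.0 CPM (interval 17.4 to 20.8), 2.32-fold higher in diaphragm. These genes lay below 50 CPM in both muscles. With the limit at 10 CPM, 8 of the 10 genes could be compared, of which 3 were higher in diaphragm (Sfrp1, Dkk3 and Rspo3) and 3 in quadriceps (Dkk2, Wif1 and Wnt2). Wif1 reached that limit at 15.8 CPM in quadriceps, where 1 cell held 270 of its 420 UMIs. At that limit 2.74% of 8724 genes were higher in diaphragm, 3.5% in quadriceps and 6.24% either way.

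The other 3 genes were rare in FAPs. Frzb, also known as Sfrp3, gave 21 UMIs in quadriceps, or 0.791 CPM (interval 0.489 to 1.21), and 125 UMIs in diaphragm, or 4.83 CPM (interval 4.02 to 5.76). Sfrp5 gave 71 UMIs (2.67 CPM) in quadriceps and none in diaphragm, at least 23.1-fold higher in quadriceps when diaphragm is set at 3 UMIs over all its FAPs. Wif1 gave 420 UMIs (15.8 CPM) in quadriceps and 1 UMI in diaphragm, a ratio of 409 with a counting interval of 73.0 to 16201. That interval treats each UMI as independent, whereas 270 of the 420 UMIs came from 1 cell.

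**Figure D1:**
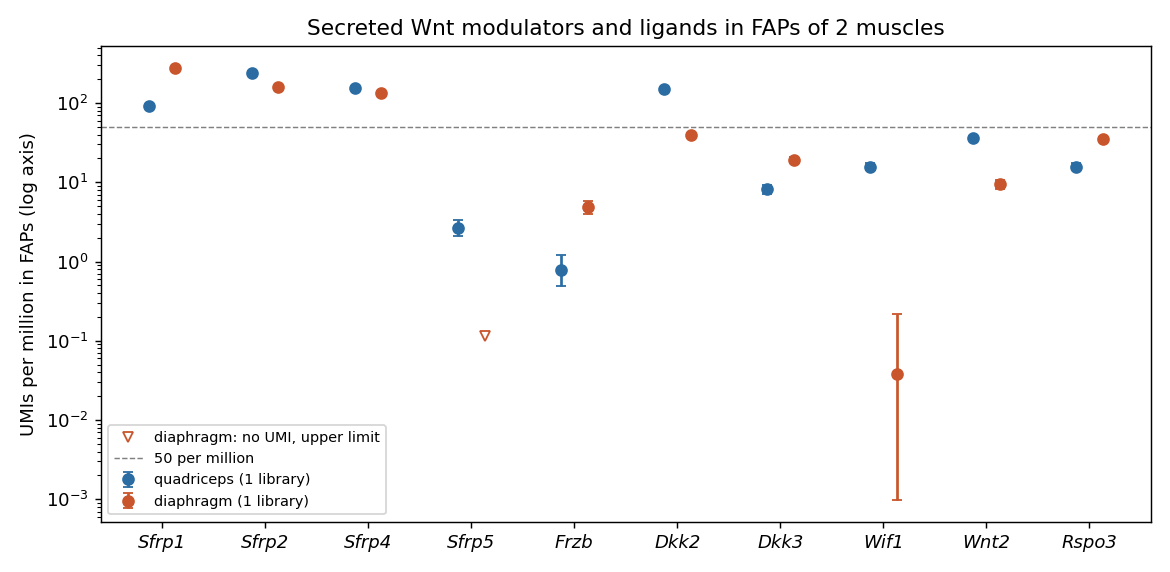
Level of each gene in FAPs of quadriceps (blue) and diaphragm (orange), in CPM on a log axis, 1 library per muscle; bars are exact 95% Poisson intervals and the open triangle marks the limit set by 3 UMIs where none was seen. Sfrp1 lies higher in diaphragm (274 against 90.7 CPM) and Dkk2 higher in quadriceps (151 against 39.6 CPM), while Sfrp2 and Sfrp4 lie close together.

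The genes were spread over FAPs in different ways. Sfrp1 had a UMI in 721 of 2339 quadriceps FAPs (30.8%) and in 1216 of 2008 diaphragm FAPs (60.6%). Sfrp2 was concentrated: 159 quadriceps FAPs (6.80%) with at least 10 UMIs each held 82.5% of its UMIs, and 116 diaphragm FAPs (5.78%) held 77.5%. A lone quadriceps FAP held 743 of the 6270 Sfrp2 UMIs. Sfrp4 was intermediate, with 62.7% of its quadriceps UMIs in 75 such cells and 62.9% of its diaphragm UMIs in 80. Rspo3 and Frzb never reached 10 UMIs in a FAP of either muscle, and Wnt2 did so in 5 quadriceps FAPs.

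After each cell was thinned to 1000 UMIs, which makes shares comparable across depths, Sfrp1 was seen in 7.10% of quadriceps FAPs (exact Clopper-Pearson interval 6.09 to 8.21) and 19.2% of diaphragm FAPs (17.5 to 21.0). Dkk2 was seen in 9.96% (8.78 to 11.2) and 3.19% (2.46 to 4.05). Immune cells, which should lack both genes, gave the background: after thinning, neither gene was seen in 425 lymphocytes (T, B and NK cell-like) of quadriceps, which allows a share of up to 0.706%, and in 139 lymphocytes of diaphragm Sfrp1 was seen in 1 and Dkk2 in none. Without thinning, Sfrp1 was seen in 0.235% of the quadriceps immune cells (median 3532 UMIs) and 0.719% of the diaphragm immune cells (median 5035 UMIs). The thinned shares of Sfrp2 were 8.68% (7.57 to 9.89) and 8.47% (7.28 to 9.77), and those of Sfrp4 were 7.35% (6.33 to 8.49) and 7.27% (6.17 to 8.50), with overlapping intervals between muscles for each.

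All kept cells of both libraries were then grouped into 17 clusters without using the 10 genes, and 8 cell classes were named from marker lists. Most UMIs of the 10 genes lay in FAP-like cells, in a quadriceps cluster led by Fmod, Kera and Chad, and in Schwann-like cells. The Fmod cluster held 1083 quadriceps cells, of which 901 passed the FAP gate, and only 36 diaphragm cells. It stayed unnamed, since its FAP markers went with leading genes of tendon cells. In diaphragm, FAP-like cells held between 97.7% and 100% of the UMIs of each gene except Sfrp5, of which they held none, beside 93.8% of all UMIs of the kept diaphragm cells.

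Sfrp5 was a gene of Schwann-like cells. The 199 Schwann-like cells of quadriceps gave 1436 Sfrp5 UMIs, or 1113 CPM (interval 1056 to 1172), against 0.116 CPM in FAP-like cells of that muscle. They held 97.4% of all Sfrp5 UMIs of the quadriceps library, and 184 of them had at least 1. In diaphragm all 35 Sfrp5 UMIs came from 3 of the 4 Schwann-like cells. After thinning, 63.5% (interval 56.2 to 70.4) of 189 Schwann-like cells of quadriceps outside the gate showed it (92.6% unthinned, median 4710 UMIs). The 4 Schwann-like cells of diaphragm were too few to compare.

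Frzb UMIs came from different classes in each muscle. In quadriceps 92.3% of its UMIs came from Schwann-like cells, where it stood at 157 CPM (interval 136 to 181) and was seen in 112 of 199 cells, while FAP-like cells stood at 0.637 CPM. In diaphragm 97.7% of its UMIs came from FAP-like cells, at 4.69 CPM, with 1 UMI in the 4 Schwann-like cells, whose level of 72.1 CPM had an interval of 1.82 to 401 that includes the quadriceps level. Within FAPs, the Frzb level was higher in diaphragm, and over all kept cells its highest class was Schwann-like in quadriceps.

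The windows around the annotated starts of both genes are shown because Sfrp5 and Frzb were each highest in Schwann-like cells of quadriceps. Each sequence comes from RefSeq on GRCm38.p6, runs from 250 bases before to 50 bases after the start, and is written 5′ to 3′ on the gene's strand. Capitals mark every match, on either strand, to TCAAAG or ACAAAG (core letters bound by TCF/LEF factors), CANNTG (the E-box) or GGGCGG (the GC box). The Sfrp5 window is chr19:42202203-42202502 on the minus strand and the Frzb window is chr2:80447347-80447646 on the minus strand. GENCODE places the Frzb start further upstream, at 80447625. By that annotation most of the Frzb window lies inside the gene.
Sfrp5: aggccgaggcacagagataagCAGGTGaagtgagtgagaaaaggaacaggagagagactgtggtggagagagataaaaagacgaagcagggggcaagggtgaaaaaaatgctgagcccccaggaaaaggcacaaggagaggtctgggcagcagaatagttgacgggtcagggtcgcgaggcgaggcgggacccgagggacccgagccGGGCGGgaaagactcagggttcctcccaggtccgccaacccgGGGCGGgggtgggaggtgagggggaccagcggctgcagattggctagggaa
Frzb: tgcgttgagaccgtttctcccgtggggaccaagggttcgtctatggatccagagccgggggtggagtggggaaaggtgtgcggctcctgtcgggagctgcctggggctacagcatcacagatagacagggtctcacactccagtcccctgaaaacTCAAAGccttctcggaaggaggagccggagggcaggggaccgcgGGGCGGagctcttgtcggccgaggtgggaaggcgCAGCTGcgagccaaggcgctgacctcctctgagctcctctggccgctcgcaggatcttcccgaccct
The Sfrp5 window held 1 E-box and 2 GC boxes, and the Frzb window held 1 TCAAAG, 1 E-box and 1 GC box. Of 32851 promoter windows of the same length, 16.0% held TCAAAG, 18.7% ACAAAG, 72.3% an E-box and 35.7% a GC box, and the matches are a description of the letters. The promoter table held entries for 6 of the 10 genes.

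Wif1 came almost entirely from the Fmod cluster of quadriceps. That cluster held 982 Wif1 UMIs, 95.8% of those in the quadriceps library, at 102 CPM (interval 95.3 to 108), in 53 cells, while FAP-like cells stood at 0.927 CPM. With finer clustering, a group of 101 quadriceps cells carried tenocyte markers (Tnmd at 2044 CPM and Scx at 514 CPM) and held 86.1% of the Wif1 UMIs, at 946 CPM. Of the 17 gated FAPs with a Wif1 UMI, 8 had the tendon transcription factor Scx, against 24 of the 2322 others, and 11 had Tnmd, against 219. The diaphragm FAP with a Wif1 UMI had no UMI of Tnmd or Scx. Of the 2007 other diaphragm FAPs, 408 had Tnmd and 11 had Scx.

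The same 101 cells also stood high for Sfrp2, Sfrp4 and Dkk2. They gave 2862 CPM of Sfrp2 (interval 2754 to 2972), 33.5% of that gene's UMIs in quadriceps, and 646 CPM of Dkk2 (interval 596 to 700), 13.7% of that gene's UMIs, and Dkk3 stood at 47.2 CPM there. Sfrp4 stood at 565 CPM (interval 518 to 615), with 11.3% of its UMIs, against 159 CPM in the FAP-like cells of that clustering. In the wider Fmod cluster Sfrp2 stood at 400 CPM and Dkk2 at 227 CPM, against 227 and 119 CPM in FAP-like cells of the same muscle. Only 35 of the 101 cells had an Sfrp2 UMI, so the level rests on few cells.

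The start windows of Wif1, Sfrp2 and Dkk2 are shown because they were high in the same tenocyte-marked cells. Source, length, orientation and capitals are those described for Sfrp5. The windows are chr10:121033754-121034053 (plus strand) for Wif1, chr3:83766071-83766370 (plus strand) for Sfrp2 and chr3:132085042-132085341 (plus strand) for Dkk2. GENCODE places the Wif1 start, at 121033960, upstream of the RefSeq start used for its window.
Wif1: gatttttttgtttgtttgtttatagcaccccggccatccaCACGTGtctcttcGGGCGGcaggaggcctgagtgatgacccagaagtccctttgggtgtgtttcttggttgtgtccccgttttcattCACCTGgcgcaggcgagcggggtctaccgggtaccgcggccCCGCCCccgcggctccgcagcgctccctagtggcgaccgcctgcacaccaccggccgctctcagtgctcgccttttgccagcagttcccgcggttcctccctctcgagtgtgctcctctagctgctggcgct
Sfrp2: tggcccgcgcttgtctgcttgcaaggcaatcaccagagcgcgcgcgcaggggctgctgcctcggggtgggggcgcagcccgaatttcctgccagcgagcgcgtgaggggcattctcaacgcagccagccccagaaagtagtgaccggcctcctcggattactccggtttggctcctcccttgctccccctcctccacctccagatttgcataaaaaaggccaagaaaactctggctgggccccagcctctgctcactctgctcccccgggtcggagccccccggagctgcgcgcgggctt
Dkk2: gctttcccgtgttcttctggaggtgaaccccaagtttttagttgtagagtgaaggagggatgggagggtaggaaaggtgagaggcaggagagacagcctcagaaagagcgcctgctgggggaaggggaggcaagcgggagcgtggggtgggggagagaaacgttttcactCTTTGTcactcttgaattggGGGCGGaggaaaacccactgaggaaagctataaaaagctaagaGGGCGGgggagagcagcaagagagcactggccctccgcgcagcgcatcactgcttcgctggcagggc
The Wif1 window held 2 E-boxes and 2 GC boxes, and the Dkk2 window held 1 ACAAAG and 2 GC boxes. The Sfrp2 window held none of the 4 motifs, which says only that those letters are not in it. No motif was shared by all 3 windows.

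Wnt2 came mostly from FAP-like cells in quadriceps, which held 94.1% of its UMIs at 59.7 CPM (interval 56.1 to 63.5), against 2.79 CPM in the Fmod cluster. Sfrp1, Sfrp4 and Rspo3 were seen in both of these groups, and 901 of the 1083 Fmod cluster cells passed the FAP gate. Sfrp1 stood at 142 CPM in the Fmod cluster and 59.7 CPM in FAP-like cells of quadriceps. Sfrp4 stood at 134 and 191 CPM and Rspo3 at 20.8 and 13.9 CPM. With finer clustering, FAP-like cells of quadriceps held 73.7% of the Sfrp1, 79.1% of the Sfrp4 and 82.7% of the Rspo3 UMIs. The 101 tenocyte-marked cells then held 4.78%, 11.3% and 2.38%. In quadriceps, Dkk3 was spread over more classes. It stood at 18.6 CPM in Schwann-like cells, 15.8 CPM in the Fmod cluster, 12.2 CPM in a cluster led by Rgs5, 5.33 CPM (interval 4.30 to 6.54) in FAP-like cells and 4.29 CPM (interval 3.31 to 5.45) in smooth muscle-like cells, the last with 17.6% of its UMIs. In diaphragm, T cell-like cells gave 16.7 CPM of Dkk3 from 8 UMIs (interval 7.22 to 32.9), overlapping the 19.2 CPM of FAP-like cells. For the other 9 genes the 1003 smooth muscle-like cells of quadriceps stood at or below 1.30 CPM. For all 10, the 206 satellite cell-like cells, the muscle stem cells, stood at or below 4.39 CPM. The 59 endothelial-like cells of quadriceps gave 79.1 CPM of Dkk2 (interval 45.2 to 128), from 16 UMIs in 7 cells.

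**Figure D2:**
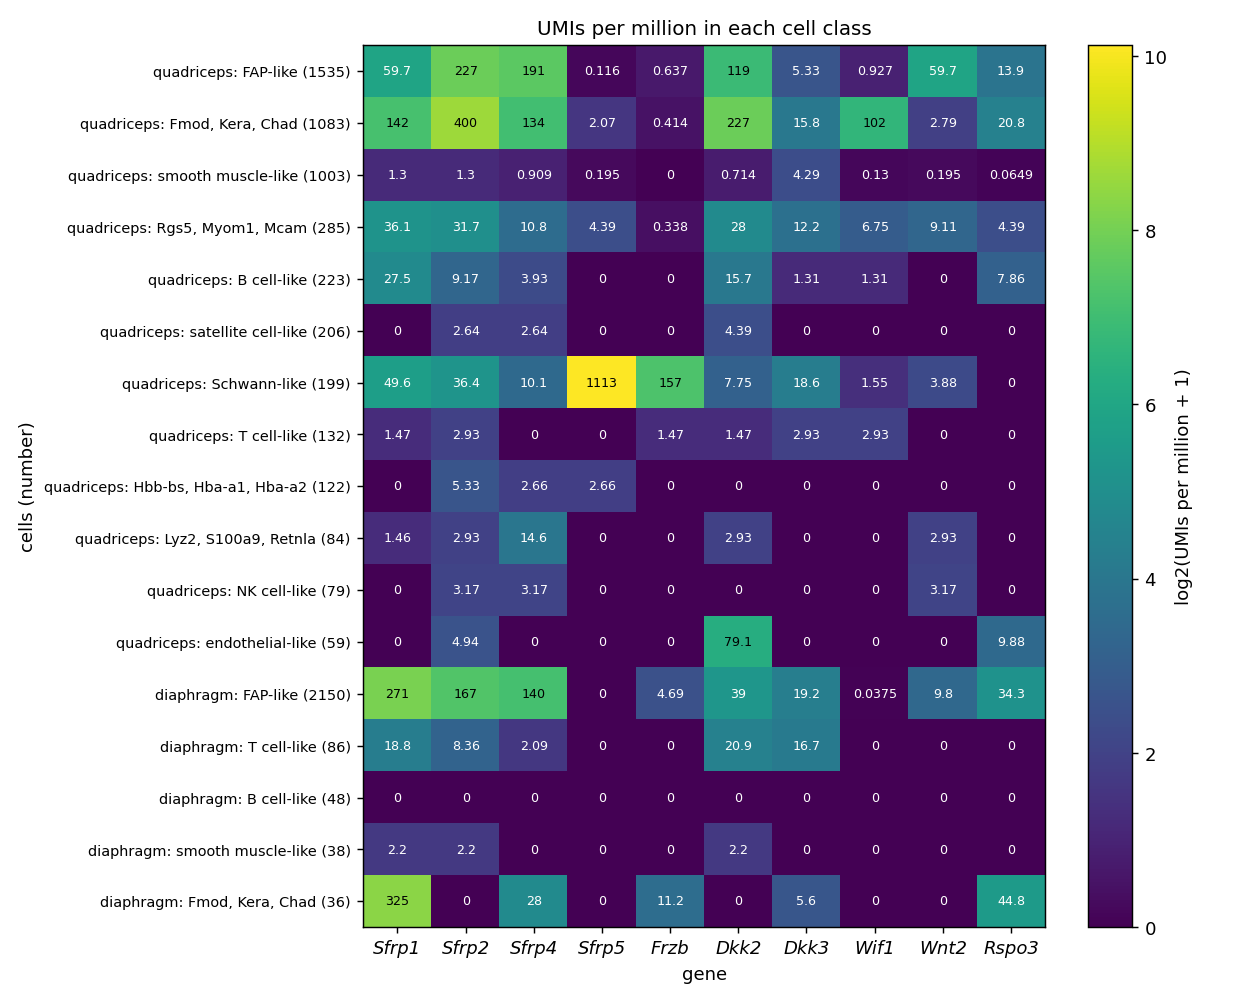
Level of each gene (columns) in each cell class of each muscle with at least 30 cells (rows, number of cells in parentheses), in CPM; colour is log2(CPM + 1), and levels are to be read down a column. Sfrp5 and Frzb peak in Schwann-like cells of quadriceps (1113 and 157 CPM), Wif1 in the Fmod, Kera, Chad cluster of quadriceps (102 CPM) and Wnt2 in FAP-like cells of quadriceps (59.7 CPM).

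FAPs of both muscles were clustered again without the 10 genes and without the other Wnt pathway genes, which gave 9 subclusters, here called by their leading genes. The Hsd11b1 (511 quadriceps and 464 diaphragm cells), C4b/Gdf10 (344 and 365), Stmn4 (439 and 266), Ptn (571 and 71), Thbs4 (77 and 514) and Has1 (38 and 310) subclusters had at least 30 cells in both muscles. The Dmkn/Sbsn (252 cells), Apod (52) and Tagln (55) subclusters were compared in quadriceps alone. The Tagln subcluster was led by smooth muscle genes, had a median of 23918 UMIs and 11.3% mitochondrial UMIs, and 50 of its 55 cells were called doublets.

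Sfrp1 was highest in the C4b/Gdf10 subcluster in both muscles, at 330 CPM (interval 312 to 349) in quadriceps and 665 CPM (interval 640 to 691) in diaphragm. The next subcluster stood at 93.8 CPM in quadriceps (Apod) and at 357 CPM in diaphragm (Thbs4), and the intervals did not overlap. It was lowest in the Stmn4 subcluster in both, at 18.9 and 48.6 CPM. The C4b/Gdf10 subcluster alone held 50.7% of the Sfrp1 UMIs of quadriceps FAPs and 37.9% of those of diaphragm FAPs.

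Sfrp2 changed its site between the muscles. In quadriceps it was highest in the C4b/Gdf10 subcluster, at 886 CPM (interval 856 to 917), and next in the Dmkn/Sbsn subcluster, at 673 CPM (interval 645 to 702). The first of these levels rested on few cells: 125 of the 344 had a UMI, 1 cell held 743 of the 3276 UMIs, and without it the level was 688 CPM. In the Dmkn/Sbsn subcluster 223 of 252 cells had a UMI. In diaphragm the C4b/Gdf10 subcluster stood at 10.2 CPM (interval 7.29 to 13.8), and the Thbs4 subcluster, at 550 CPM, held 91.3% of the Sfrp2 UMIs, in 309 of its 514 cells. The log2 difference between muscles ran from -6.31 in the C4b/Gdf10 subcluster to 2.68 in the Thbs4 subcluster. The small difference over all FAPs thus sums differences of both signs. The tendon genes read by subcluster did not move one way in the C4b/Gdf10 subcluster. Tnmd stood there at 200.2 CPM in quadriceps and 29.7 CPM in diaphragm and Scx at 8.66 and 0.248 CPM, both higher in quadriceps. Thbs4 stood at 162 and 289 CPM, higher in diaphragm, and the part of these genes in the Sfrp2 difference was not tested.

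Sfrp4 was broader. It was highest in the Has1 subcluster of quadriceps (501 CPM) and the Ptn subcluster of diaphragm (289 CPM), in each case with an interval overlapping that of the next, and it was lowest in the Hsd11b1 subcluster in both muscles (6.24 and 25.2 CPM). Stmn4 FAPs gave much the same level in each muscle, 168 CPM (interval 157 to 180) in quadriceps and 165 CPM (interval 152 to 178) in diaphragm.

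Dkk2 was highest in the C4b/Gdf10 subcluster of quadriceps, at 557 CPM, with 51.4% of its UMIs, whereas that subcluster stood at 17.1 CPM in diaphragm. The same differences in Tnmd, Scx and Thbs4, which were not all one way, stand beside this one, and their part was not tested. In diaphragm the Has1 and Thbs4 subclusters were highest, at 83.6 and 74.2 CPM, with overlapping intervals. The Hsd11b1 subcluster stood at 150 CPM in quadriceps and 3.30 CPM in diaphragm. Dkk3 was highest in the Thbs4 subcluster of both muscles, at 35.9 and 55.6 CPM, and in diaphragm this subcluster held 77.2% of its UMIs.

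Wif1 was seen chiefly in the Thbs4 subcluster of quadriceps, at 356 CPM, from 377 of the 420 UMIs. These lay in 7 of the 77 cells, and without the cell with 270 UMIs the level was 104 CPM. The same subcluster of diaphragm, with 514 cells, had none. The 2 sides of this subcluster also differed in Scx, with 170 UMIs in 77 quadriceps cells and 8 UMIs in 514 diaphragm cells.

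The ligand Wnt2 was highest in the Dmkn/Sbsn subcluster of quadriceps, at 178 CPM (interval 164 to 193), and next in the Stmn4 subcluster, at 52.0 CPM (interval 46.0 to 58.6), and these held 59.3% and 28.0% of its UMIs. In diaphragm, where only 9 cells fell in the Dmkn/Sbsn subcluster, the Stmn4 subcluster was highest at 22.1 CPM, with an interval that overlapped that of the Ptn subcluster. Rspo3 was highest in the Ptn subcluster of quadriceps (33.9 CPM) with the Dmkn/Sbsn subcluster close behind (31.3 CPM), and in the C4b/Gdf10 subcluster of diaphragm (83.8 CPM), which stood at 10.3 CPM in quadriceps. Frzb was highest in the Ptn subcluster of diaphragm, at 18.5 CPM from 17 UMIs. Sfrp5 was highest in the Has1 subcluster of quadriceps, at 51.7 CPM from 26 UMIs in 3 of the 38 cells.

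**Figure D3:**
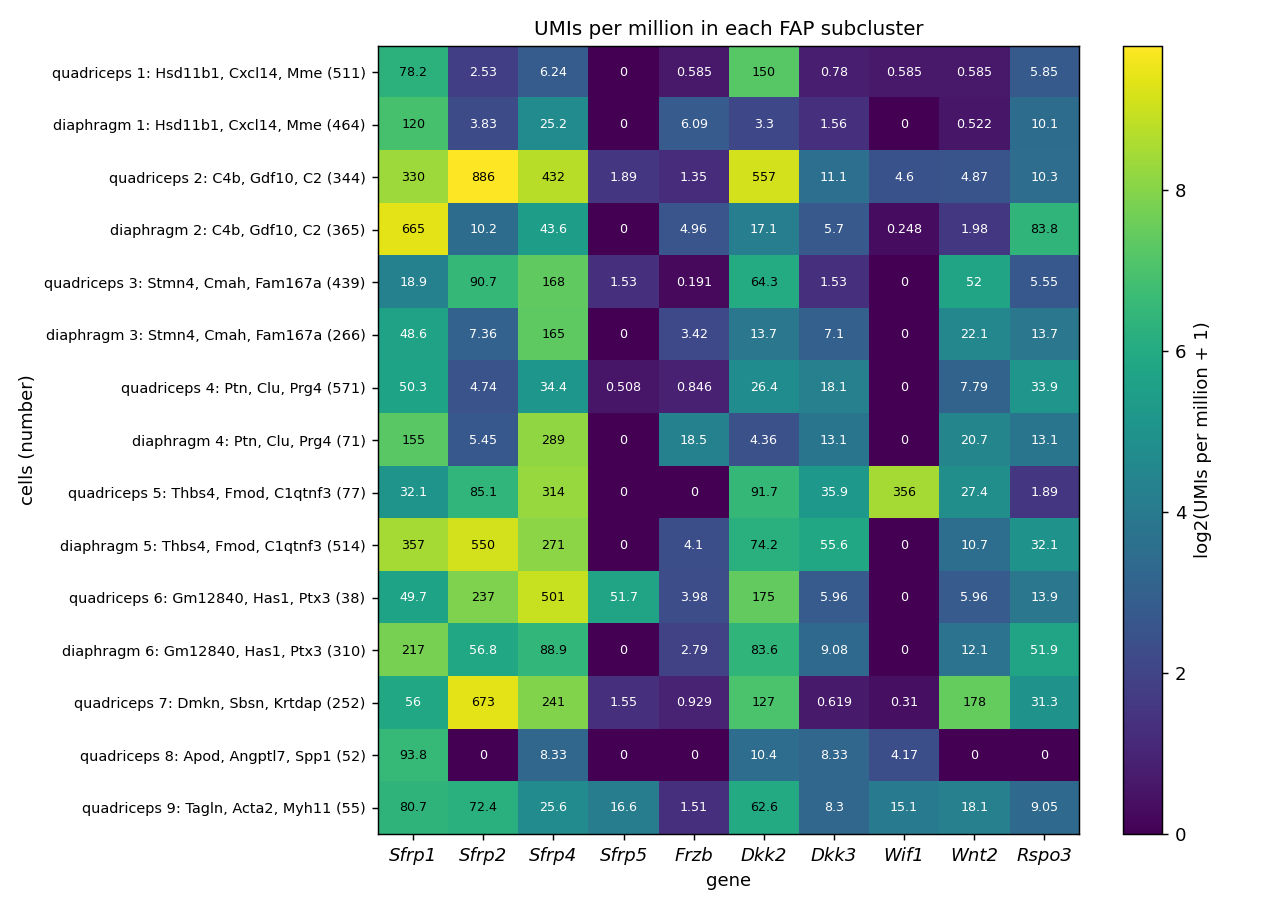
Level of each gene (columns) in each FAP subcluster of each muscle with at least 30 cells (rows, leading genes and number of cells), in CPM; colour is log2(CPM + 1). The C4b, Gdf10, C2 rows show Sfrp1 high in both muscles (330 and 665 CPM) but Sfrp2 at 886 CPM in quadriceps (688 CPM without 1 cell) and 10.2 CPM in diaphragm.

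The difference between muscles was next read within the 6 subclusters that both muscles filled. Sfrp1 was higher in diaphragm in 6 of 6, with log2 differences from 0.62 to 3.43, and Dkk2 was higher in quadriceps in 6 of 6, with log2 differences from -5.13 to -0.30. The smallest Dkk2 difference, in the Thbs4 subcluster, had a counting interval of -0.62 to 0.02, which includes no difference. Rspo3 was higher in diaphragm in 5 of 6 and Frzb in 5 of 6. Sfrp2 was split 3 and 3, Sfrp4 was higher in quadriceps in 4, and Dkk3 was higher in diaphragm in 4. Wnt2 was higher in quadriceps in 4 of 6. When each of the 6 subclusters had the same weight, the log2 difference was 1.47 for Sfrp1, -2.40 for Dkk2, -1.04 for Sfrp2, -0.50 for Wnt2 and 0.31 for Dkk3. Wnt2 and Dkk3 thus fell from past 2-fold to under it, and Sfrp2 passed it. The Sfrp2 value includes the C4b/Gdf10 level of quadriceps, 886 CPM, or 688 CPM without the cell with 743 UMIs. It was not computed again without that cell. The Dmkn/Sbsn subcluster, which held 59.3% of the Wnt2 UMIs of quadriceps FAPs, is not among the 6.

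**Figure D4:**
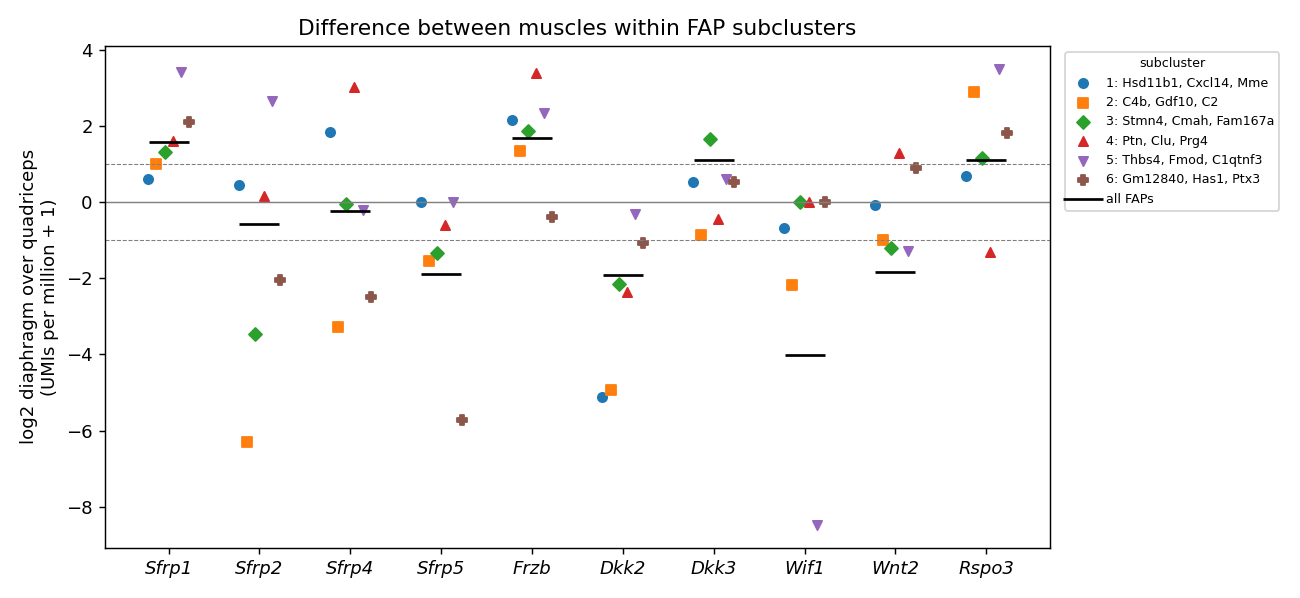
Log2 difference of diaphragm over quadriceps (CPM + 1) for each gene, within each of 6 FAP subclusters (symbols) and over all FAPs (black bars); dashed lines mark 2-fold. All 6 symbols lie above 0 for Sfrp1 and below 0 for Dkk2, while those of Sfrp2 run from -6.31 to 2.68.

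The study separates FAPs into FBN1+ and LUM+ subtypes, and the 10 genes were compared between them in each muscle. By 9 naming genes, the Stmn4 and Dmkn/Sbsn subclusters were FBN1+ (691 quadriceps and 275 diaphragm FAPs), and the Hsd11b1, C4b/Gdf10, Thbs4 and Apod subclusters were LUM+ (984 and 1352). The other 664 and 381 FAPs had neither name. Of the 10 genes, only Sfrp1, Sfrp2 and Sfrp4 reached 50 CPM in a subtype of each muscle and could be compared in both. Of these, Sfrp1 was the only gene called, at least 2-fold the same way in both muscles. It stood at 33.1 CPM in FBN1+ and 164 CPM in LUM+ FAPs of quadriceps, and at 48.2 and 348 CPM in diaphragm, log2 differences of -2.28 and -2.83. Over the 3050 genes compared, 2.62% were called higher in LUM+ and 2.75% higher in FBN1+ FAPs. Within quadriceps alone, 1 of the 10 genes (Wnt2) was past the limits in FBN1+ FAPs, beside 5.82% of 3437 genes, and 2 (Sfrp1 and Dkk2) in LUM+ FAPs, beside 6.6%. Within diaphragm alone, none was past them in FBN1+ FAPs, beside 3.3% of 3244 genes, and 2 (Sfrp1 and Sfrp2) in LUM+ FAPs, beside 3.51%.

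Wnt2 lay on the other side. It stood at 100.1 CPM in FBN1+ and 4.82 CPM in LUM+ FAPs of quadriceps, a log2 difference of 4.12, and at 22.7 and 5.03 CPM in diaphragm, a log2 difference of 1.98. It was not among the genes compared in both muscles, since it did not reach 50 CPM in diaphragm. Dkk2 was lower in FBN1+ FAPs by log2 differences of -1.67 in quadriceps (88.3 against 283 CPM) and -1.01 in diaphragm (17.2 against 35.6 CPM), and Dkk3 by -2.11 and -1.67. Both were below 50 CPM in diaphragm. Sfrp4 differed little, by 0.05 and 0.29. Sfrp2 stood at 313 and 326 CPM in quadriceps but at 11.9 and 229 CPM in diaphragm, a log2 difference of -4.16. The diaphragm values of Sfrp2, Sfrp4, Dkk2 and Dkk3 depended on how the subclusters were cut: with doublet calls left out they were -0.57, 2.09, 0.38 and 0.45, and the LUM+ FAPs of diaphragm then numbered 789.

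Rspo3 went opposite ways. It stood at 15.4 CPM in FBN1+ and 6.75 CPM in LUM+ FAPs of quadriceps, a log2 difference of 1.08, and at 14.6 and 36.8 CPM in diaphragm, a log2 difference of -1.27. The FBN1+ FAPs of quadriceps held 252 Dmkn/Sbsn cells, which gave 101 of their 130 Rspo3 UMIs (31.3 CPM), and those of diaphragm held 9. In the Stmn4 subcluster, the other FBN1+ group, Rspo3 stood at 5.55 CPM (interval 3.71 to 7.97) in quadriceps, an interval that includes the LUM+ level of that muscle, and at 13.7 CPM (interval 10.2 to 17.9) in diaphragm. Of the 3050 genes compared, 0.0328% went past 2-fold in opposite directions, and Rspo3 was below the level needed to be among them.

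Some of the 10 genes were seen together in the same FAPs. Over 2339 quadriceps FAPs the correlation of log-normalised values was 0.45 for Sfrp1 and Dkk2, with UMIs of both in 389 cells, and 0.37 for Sfrp2 and Sfrp4. Over 2008 diaphragm FAPs it was 0.38 for Sfrp2 and Dkk3 and 0.30 for Sfrp1 and Rspo3. These points share a library and a cell's depth, and the values are descriptions.

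Genes whose level followed that of a member over the 21 groups of quadriceps and 10 groups of diaphragm (FAP subclusters and other cell classes) were ranked among 4973 genes by the lower Pearson r of the muscles. Nearest to Sfrp1 were Dcn (0.93 and 0.94), which the gate used, Amy1 and Omd. Nearest to Sfrp2 was Cldn10 (0.79 and 0.84), followed by the members Dkk2 and Sfrp4. Sfrp4 was followed most closely by the complement gene C7 (0.93 and 0.93), Pamr1 and Fbln1. Dkk2 was followed by Igfbp3 (0.87 and 0.98), Pcsk5 and Rhou, and Dkk3 by the collagen gene Col8a2 (0.75 and 0.84), Ptpn13 and Cdh11. Wnt2 was followed by the prostaglandin synthase gene Ptgs1 (0.87 and 0.92), Sema3c and Stmn4, and Rspo3 by Galnt15 (0.90 and 0.90), Calml4 and Lrrn4cl.

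The other 72 genes of the pathway were read by list. At 50 CPM, 13 could be compared, of which 1 was higher in quadriceps and none in diaphragm, and at 10 CPM, 31 could be compared, of which 4 were higher in diaphragm and 1 in quadriceps, beside 2.74% and 3.5% over all genes. At the 6.24% called either way, under 1 of 12 receptors or of 8 transducers would be past the limit, so counts of 0 there are near the background. None of the 12 receptors at 10 CPM passed 2-fold, with log2 differences from -0.40 to 0.73. Among them, Ryk stood at 131 CPM in quadriceps and 153 CPM in diaphragm, Lrp6 at 119 and 107 CPM and Fzd4 at 84.7 and 110.3 CPM. None of the 8 transducers passed either, with log2 differences from -0.26 to 0.43, and beta-catenin itself, Ctnnb1, stood at 217 and 232 CPM. Wls, which carries Wnt ligands to the surface, stood at 119 and 160 CPM, and Igfbp4, a secreted inhibitor outside the 10, at 983 and 1647 CPM, a log2 difference of 0.74.

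The ligand list had 5 genes at 10 CPM, of which 2 were higher in diaphragm. Wnt5a, a mainly non-canonical ligand, stood at 85.4 and 106 CPM, and Wnt11 at 60.1 and 58.7 CPM, so neither passed 2-fold. Rspo1, an R-spondin like Rspo3, gave 72 UMIs in quadriceps FAPs (2.71 CPM, interval 2.12 to 3.41) and 1217 UMIs in diaphragm FAPs (47.0 CPM, interval 44.4 to 49.7), a log2 difference of 3.69. It was past 2-fold higher in diaphragm in all 6 shared subclusters. Rspo2, named after its values were seen, gave 46 UMIs in quadriceps FAPs and none in diaphragm FAPs. Wnt4, also named after its values were seen, was higher in diaphragm by a log2 difference of 1.19 (4.03 and 10.5 CPM).

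The target list had 4 genes at 10 CPM, and they did not move one way. Axin2, a feedback inhibitor that canonical signalling induces and that was named after its values were seen, gave 3.31 CPM (interval 2.66 to 4.08) in quadriceps FAPs and 16.5 CPM (interval 14.9 to 18.1) in diaphragm FAPs, a log2 difference of 2.02. It was higher in diaphragm in 6 of 6 shared subclusters and past 2-fold in 5. The smallest Axin2 difference, in the C4b/Gdf10 subcluster, came from 15 UMIs in quadriceps and 18 in diaphragm. Its log2 counting interval of -0.93 to 1.23 includes no difference. In the other 5, quadriceps gave between 2 and 8 Axin2 UMIs. Nkd2, a feedback inhibitor acting on Dishevelled, was higher in diaphragm by 1.16 (9.15 and 21.8 CPM), and Nkd1 lay the other way at -0.64 (18.0 and 11.2 CPM). Ccnd1, which encodes cyclin D1 and responds to many growth signals, gave 64.4 CPM (interval 61.4 to 67.5) in quadriceps and 10.7 CPM (interval 9.52 to 12.1) in diaphragm, a log2 difference of -2.48, and was past 2-fold higher in quadriceps in 6 of 6 subclusters. The immediate early genes named above moved with muscle as well, and their part in these differences was not tested.

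**Figure D5:**
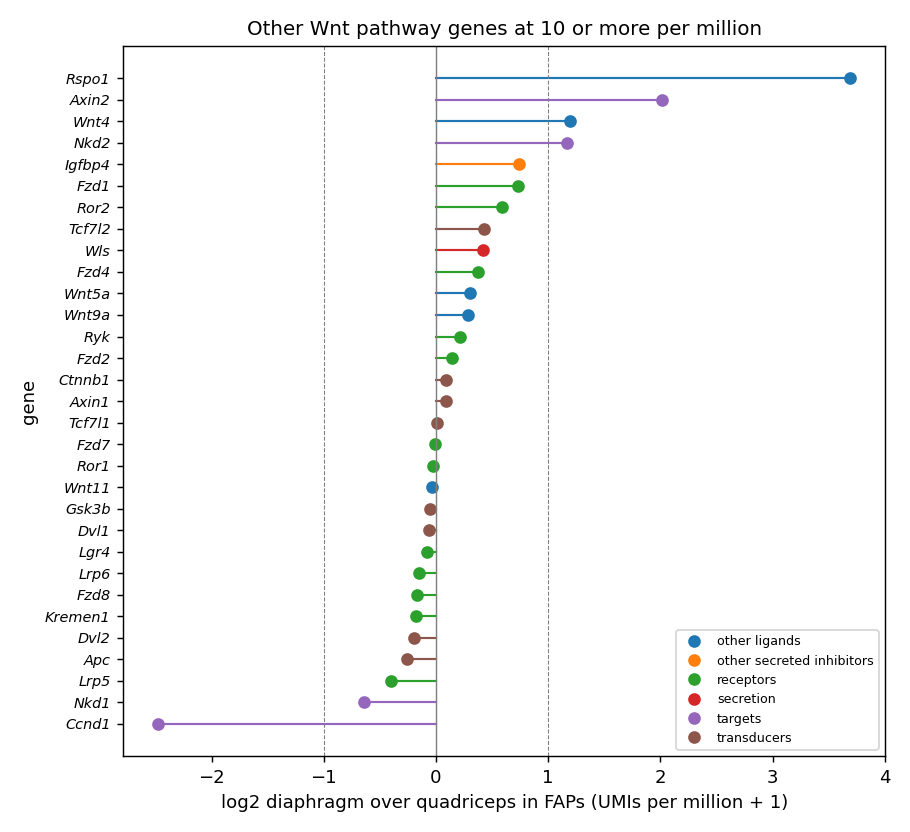
Log2 difference of diaphragm over quadriceps FAPs (CPM + 1) for the 31 other Wnt pathway genes that reached 10 CPM in a muscle, coloured by list; dashed lines mark 2-fold. Rspo1 (3.69), Axin2 (2.02), Wnt4 (1.19) and Nkd2 (1.16) lie past the right line, Ccnd1 (-2.48) past the left one, and all receptors and transducers lie between the lines.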

How the data were processed

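Droplet single-cell RNA sequencing was performed on 1 pooled library of quadriceps and 1 of diaphragm. The deposited values were raw UMI counts for each gene in each barcode. Per the labels, the authors used Cell Ranger 3.0.0 and Seurat and the mm10 (GRCm38) genome. Called barcodes were deposited, and the effect of free RNA was read from lymphocytes. The 10 genes, the gene lists and the marker lists were chosen with earlier results of these data known.

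Counts were processed in Python 3.11.15 with numpy 2.4.6, scipy 1.17.1, scanpy 1.11.5 and leidenalg 0.10.2. Barcodes with at least 1000 UMIs were kept, except those over 3 scaled median absolute deviations above their library median (log10 scale), and no mitochondrial limit was set. Doublets were kept. An alternative left out the 1.84% of quadriceps and 0.12% of diaphragm barcodes that Scrublet marked. Counts were scaled to 10000 per cell, and 10 principal components of 2000 variable genes, 20 shared neighbours and Leiden clustering at a resolution of 0.5 were used. FAPs were clustered again with genes scaled within each library and without the pathway genes. A class needed 3 markers seen in at least 25% of cells at 4-fold over the lowest cluster, under rules set after seeing clusters. A subtype needed 3 naming genes of a side above the other FAPs.

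CPM came from summed counts, folds used a pseudocount of 1 CPM, and no p-value was computed, since cells are not replicates. Zero counts were read as a limit of 3 counts. The named genes were the 10, at most the 3 highest of each pathway list, the 3 genes most like each member with at least 200 UMIs in FAPs of each muscle, and up to 3 leading genes of a cluster; exceptions are stated. The fold was tested on simulated counts. Other scalings, gates, filters, resolutions and a mitochondrial limit of 5% were tried, and 1 fixed marker, Trac, had no row in the files used here.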

Additional observations from a re-analysis of the deposited data

Results flagged for a closer look

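The log2 difference of FBN1+ over LUM+ FAPs for Rspo3 was 1.08 in quadriceps (15.4 and 6.75 CPM) and -1.27 in diaphragm (14.6 and 36.8 CPM). It was picked out because the muscles, with 1 library each, moved opposite ways, and the difference between them was not tested. Of the 130 FBN1+ UMIs in quadriceps, 101 came from the Dmkn/Sbsn subcluster (31.3 CPM, 252 cells), which had 9 cells in diaphragm, while the Stmn4 subcluster of quadriceps stood at 5.55 CPM. Under the alternatives the quadriceps value was never below 0.79, and the diaphragm value ran from -1.69 to -0.08. The diaphragm value was nearest to 0 when genes were scaled over both libraries together.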

How the results depend on the processing

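No paired analysis was possible because each muscle has 1 library and no replicate. Over all alternatives Sfrp1 stayed higher in diaphragm FAPs (log2 1.46 to 2.19) and Dkk2 higher in quadriceps FAPs (-2.40 to -1.59). Median-of-ratios scaling, which centres the genes shared by the muscles, gave 1.69 and -1.80; the median over the genes compared was -0.10 without it. The count of the 10 genes called between muscles, 1 each way, became 3 each way with the limit at 10 CPM. At that limit 2.74% of 8724 genes were higher in diaphragm and 3.5% in quadriceps. With no limit the count became 4 each way, which includes Frzb and Sfrp5, with 21 and 71 UMIs in quadriceps FAPs. For no limit and for the settings that follow, no share over all genes is given, so those counts describe the list alone. The count higher in quadriceps became 2 with at most 5% mitochondrial UMIs, 2 with FAP-like clusters in place of the gate, 2 with gate and cluster together, and 3 with equal weight of subclusters, an alternative chosen after seeing the data. With equal weight the 3 were Dkk2, Sfrp2 (log2 -1.04) and Wif1 (-5.88). In quadriceps, 1 cell held 743 of the 3276 Sfrp2 UMIs of the C4b/Gdf10 subcluster, and 1 cell 270 of the 377 Wif1 UMIs of the Thbs4 subcluster. The limit on level changes the count through how many genes can be called, and for the other settings the cause was not tested. The counts between FBN1+ and LUM+ FAPs (none and 1) stayed as they were in each alternative run. Of the 10 genes, 2 were highest in FAP-like cells of quadriceps, or 1 at a resolution of 1.0. With each library clustered on its own, Sfrp1, Wnt2 and Rspo3 were highest there. In diaphragm 6 were highest in FAP-like cells, or 3 with each library clustered on its own and 1 with at most 5% mitochondrial UMIs. At a resolution of 1.0, Sfrp4, Dkk2, Wif1 and Wnt2 were highest in FAP-like cells of diaphragm. Wif1 rested on 1 UMI in diaphragm. The cause of these changes was not tested. Sfrp2 and Sfrp4 between subtypes of quadriceps ran from -0.47 to 4.46 and from -0.45 to 2.46. Of 140 alternative values of a gene's difference between muscles, 75 moved by more than their counting interval, as did 58 of 133 between subtypes. Depth limits Sfrp5 and Frzb in FAPs (71 and 21 UMIs in quadriceps), 1 cell holds 270 of the 420 Wif1 UMIs, and 1 library per muscle limits every comparison.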
